A study of Mus musculus with 6 samples.

Results

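Spp1, Lpl, Gpnmb, Fabp4, Fabp5, Lgals3, Cd9, Cd63, Plin2 and Apoc2 are marker genes of lipid-associated macrophages, the macrophage state that carries high Trem2. These 10 genes were chosen from what is known of that state, with earlier results of these data also known. They were matched by symbol among the 56092 gene symbols of the count table. RNA was measured in 2 stable lines of the mouse macrophage line RAW264.7, of which one carried a control vector (shNC) and the other an shRNA against Trem2 (shTrem2), with 3 replicates per group. All 6 libraries came from cells that had been given IL-4 at 20 ng/mL for 24 hours, which induces Arg1 in these cells, and then debris of TCMK-1 renal tubular epithelial cells for 24 hours. Both lines were made with lentivirus that also encodes GFP and were selected with puromycin, so the control cells share all of this with the knockdown cells. Other differences between the 2 lines cannot be told apart from the knockdown of Trem2. Which of the study's shRNAs the sequenced line carried is not given in the sources used here, and no second shRNA line and no library without IL-4 or without debris was analysed here.

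Lipid-associated macrophages were described in tissues that release lipid, such as obese fat and injured organs, where they take up and store lipid from dying cells. Trem2 is a surface receptor that binds lipids and signals through the adaptor Tyrobp, and in mice the full state is known to depend on it. The 10 markers cover the path of the lipid: lipoprotein lipase (Lpl) and its cofactor Apoc2 release fatty acids from triglyceride, Fabp4 and Fabp5 carry them in the cytosol, and Plin2 coats the droplets in which they are stored. Cd9, Cd63 and Gpnmb are proteins of the cell surface, endosomes and lysosomes, and Spp1 (osteopontin) and Lgals3 (galectin-3) are secreted.

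Estimated counts per library totalled from 16054486 to 18290532 in shNC and from 19545744 to 19835186 in shTrem2. Levels are given in CPM, a library's counts scaled to a common total. A gene listed at 0 could have up to 3 counts, which is 0.153 to 0.189 CPM by library and covers counting error alone. Trem2 itself was at 114, 122 and 144 CPM in the shNC libraries and at 64.7, 63.1 and 80.1 CPM in the shTrem2 libraries, a log2 fold change of -0.87 (standard error 0.094, adjusted p = 3.39e-06). Here and later, adjusted p is the Benjamini-Hochberg value of edgeR's quasi-likelihood test unless another is named. The groups did not overlap, and on the authors' FPKM scale the change was larger, at -2.06 to -2.08. The summed count joins transcript rows that went opposite ways: the largest row in shNC had 1015, 1137 and 1411 estimated counts there and 295, 223 and 374 in shTrem2, while another had 402, 520 and 587 in shNC and 840, 857 and 1074 in shTrem2. The value of -0.87 is thus the change of their sum, not of either transcript. The labels do not say whether replicates were separate cultures, so p-values measure the spread between these samples, which may be technical. The labels name no batch.

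The 10 markers split. Fabp5 rose 2.26-fold (95% interval 2.06 to 2.48), Cd9 rose 1.28-fold and Lgals3 rose 1.21-fold in shTrem2, and Apoc2, the marker with the fewest counts, fell. The other 6 markers, Spp1, Lpl, Gpnmb, Fabp4, Cd63 and Plin2, did not pass the test. Thus 4 of 10 markers (40.0%) had an adjusted p under 0.05 by edgeR's quasi-likelihood test, where 57.4% of the 13528 tested genes did. Of the markers 3 were higher, beside 28.8% of all tested genes, and 1 was lower, beside 28.6%. Only Fabp5 and Apoc2 also passed a fold change of 1.5 (DEG), which is 2 of 10 markers (20.0%) beside 21.8% of tested genes. These were 1 higher and 1 lower, where 9.46% and 12.4% of tested genes were higher and lower DEGs. The shNC and shTrem2 libraries did not overlap for 4 of 10 markers, beside 63.8% of tested genes. The median absolute log2 fold change was 0.21 over the markers and 0.31 over all tested genes, and the markers' median with its sign was 0.13. In bulk RNA, fewer cells with a marker and less of its RNA per cell cannot be told apart.

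Marker levels spanned a wide range in shNC cells. On the FPKM scale, which corrects for transcript length, Spp1 averaged 4143 ± 285 (SD, n = 3). Lgals3 followed at 437 ± 44.9, Fabp5 at 383 ± 9.99, Cd9 at 306 ± 4.63, Cd63 at 299 ± 12.9, Gpnmb at 257 ± 25.5 and Lpl at 224 ± 12.1 FPKM. Plin2 averaged 82.2 ± 5.32, Fabp4 24.2 ± 2.38 and Apoc2 4.71 ± 1.32 FPKM. In this order only Cd9 and Cd63, and Gpnmb and Lpl, overlapped with the neighbour below them in single libraries. In shTrem2 cells the order was the same but for one exchange. Fabp5, at 855 ± 94.9 FPKM (SD, n = 3), stood above Lgals3, at 509 ± 34.6 FPKM, and there Cd63 and Gpnmb, and Gpnmb and Lpl, overlapped.

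**Figure D1:**
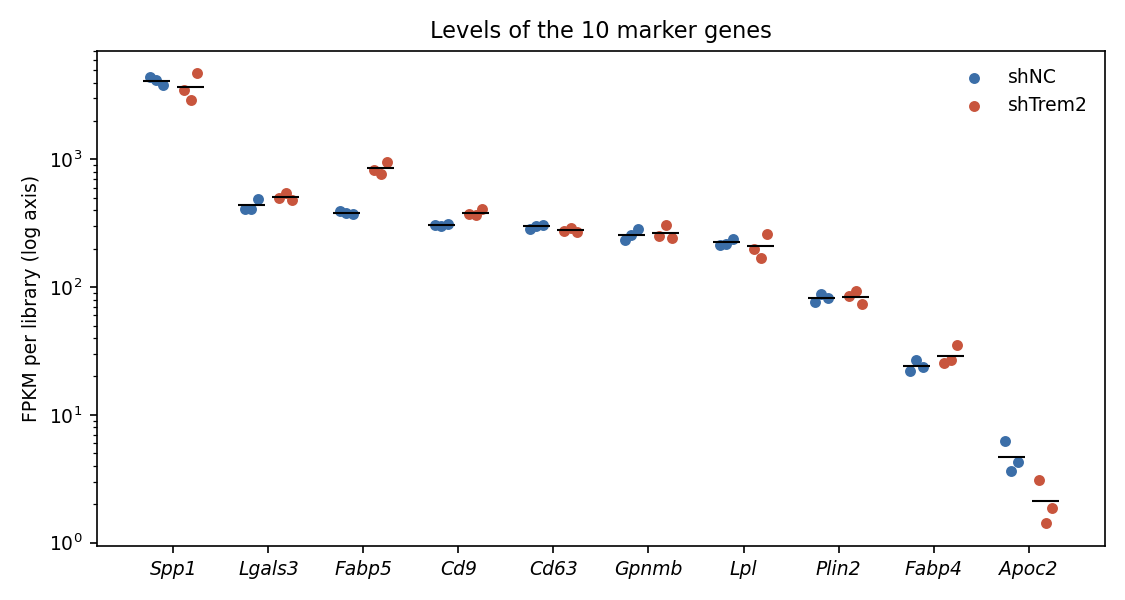
FPKM of each marker (log axis) in the 3 shNC libraries (blue) and the 3 shTrem2 libraries (red), with a line at each group's mean and genes ordered by their shNC mean. Spp1 stands alone near 4143 FPKM, Apoc2 is lowest in both groups, and the Fabp5 libraries do not overlap, 374 to 394 FPKM in shNC against 774 to 960 in shTrem2.

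Fabp5 (ENSMUSG00000027533), the fatty acid binding protein of epidermis and macrophages, was at 263, 256 and 253 CPM in shNC and at 570, 528 and 644 CPM in shTrem2. The groups were far apart, with the highest shNC library at less than any shTrem2 library. The log2 fold change was 1.18 (standard error 0.063, 95% interval 1.04 to 1.31, adjusted p = 5.07e-09). Across the 14 alternative settings it stayed between 1.09 and 1.24 and past the threshold in each.

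Fabp4 (ENSMUSG00000062515), its close relative and the fatty acid binding protein of adipocytes, was at 13.6, 16.3 and 14.5 CPM in shNC and at 15.6, 16.2 and 20.7 CPM in shTrem2. The groups overlapped, with only shTrem2 replicate 3 above every shNC library, and the log2 difference of 0.24 (95% interval -0.02 to 0.50, adjusted p = 0.101) did not pass. Fabp4 counts were 5.18%, 6.39% and 5.74% of Fabp5 counts in shNC and 2.74%, 3.08% and 3.22% in shTrem2. The ratio was thus lower in all 3 shTrem2 libraries, by 0.94 on the log2 scale, with p = 0.1 by an exact two-sided permutation test, the smallest p that 3 libraries against 3 allow.

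How far reads of these paralogs can be told apart depends on their sequences. Their coding sequences are 399 bases (Fabp4) and 408 bases (Fabp5) long with the stop codon, and 248 of 399 aligned bases (62.2%) are identical. The longest stretch they share is 16 bases, against a read length of 150 bases. A stretch of 90 bases from near the start of each coding sequence is shown, with capitals at the 37 bases that differ between them. It comes from the GENCODE M21 transcripts Fabp4-201 (bases 14 to 103 of the coding sequence) and Fabp5-201 (bases 20 to 109).
Fabp4: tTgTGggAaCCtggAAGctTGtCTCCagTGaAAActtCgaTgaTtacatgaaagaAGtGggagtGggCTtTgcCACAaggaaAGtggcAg
Fabp5: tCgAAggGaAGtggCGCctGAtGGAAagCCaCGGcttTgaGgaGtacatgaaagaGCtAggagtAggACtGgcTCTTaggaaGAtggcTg
The Fabp5 copy Fabp5l2 was listed at 0 counts in all libraries. Of the other genes of the cluster in which Fabp4 and Fabp5 lie, Pmp2 and Fabp9 were at 0 and Fabp12 had at most 1 count, values looked up outside the rule for named genes.

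Each of the paralogs had a pair of transcript rows, a spliced coding transcript and a retained-intron transcript. The rows carry no transcript name and were assigned by finding the order in which GENCODE M21 transcript lengths and row counts give back the gene's FPKM, with an error of at most 0.0437% against at least 76.9% for the exchanged order. Fabp5-201, the coding transcript, averaged 252 ± 4.84 CPM (SD, n = 3) in shNC and 577 ± 58.8 CPM in shTrem2. The retained-intron transcript Fabp5-202 moved the other way, from 5.82, 5.48 and 5.20 CPM in shNC to 3.39, 3.93 and 3.83 CPM in shTrem2. Fabp4 had the same arrangement. Fabp4-201 averaged 13.6 ± 1.37 CPM in shNC and 16.9 ± 2.82 CPM in shTrem2, and Fabp4-202, with the intron, was at 1.32, 1.33 and 1.15 CPM in shNC and at 0.645, 0.719 and 0.639 CPM in shTrem2. Both retained-intron transcripts were lower in all 3 shTrem2 libraries, with log2 ratios of -0.56 for Fabp5-202 and -0.93 for Fabp4-202, each with p = 0.1 by an exact two-sided permutation test.

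**Figure D2:**
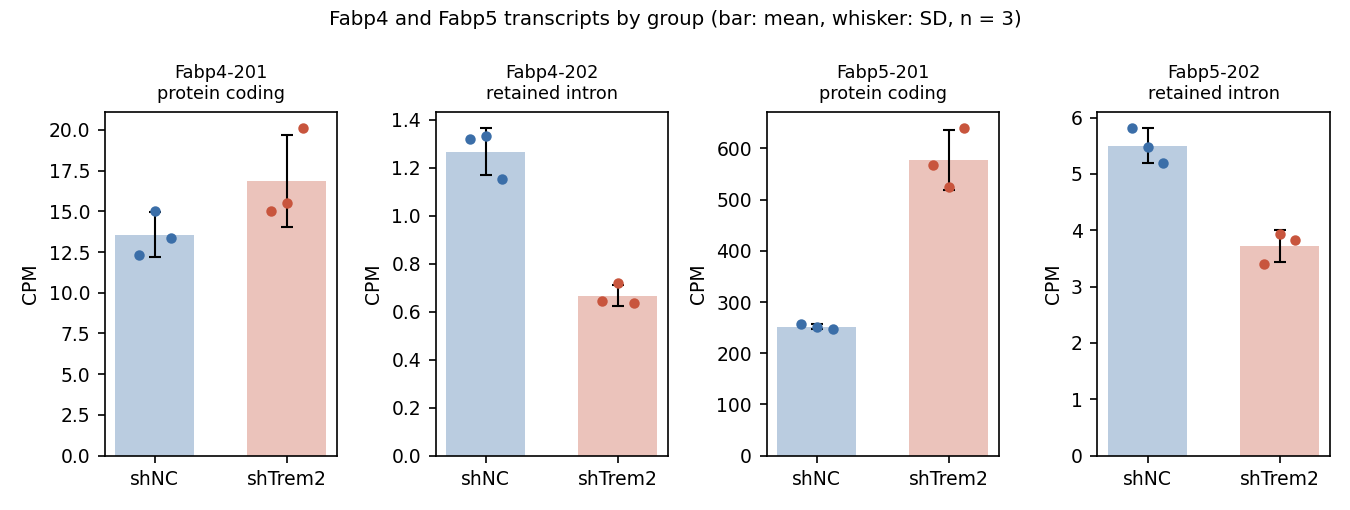
CPM of the coding and the retained-intron transcripts of Fabp4 and Fabp5 by group, with a bar at the mean, a whisker of 1 SD (n = 3) and a point per library. Each axis starts at 0 and has its own scale; Fabp5-201 is higher in every shTrem2 library while both retained-intron transcripts are lower.

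Plin2, the perilipin that coats lipid droplets in most cells, was at 106, 113 and 113 CPM in shNC and at 123, 144 and 108 CPM in shTrem2. Replicate 3 of shTrem2 fell inside the shNC range, and the log2 difference was 0.17 (adjusted p = 0.0831). Without that library the difference was 0.26 and passed (adjusted p = 0.00276), without shTrem2 replicate 2 it was 0.063 (0.430), and on FPKM values, tested with limma, it was 0.028 (0.828 with a pseudocount of 1). Nearly all Plin2 counts were in the coding transcript Plin2-201, at 106 ± 2.98 CPM (SD, n = 3) in shNC and 122 ± 18.9 CPM in shTrem2. A short noncoding transcript, Plin2-208, was at 1.84, 3.80 and 2.09 CPM in shNC and at 1.32, 0.636 and 0.665 CPM in shTrem2, so the groups did not overlap (p = 0.1 by an exact two-sided permutation test). A Plin2 pseudogene, Gm12551, had at most 1 count.

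Lpl, the lipase that macrophages secrete, was at 811, 826 and 903 CPM in shNC and at 776, 651 and 999 CPM in shTrem2. The shTrem2 libraries lay on both sides of the shNC libraries, and the log2 difference was -0.07 (95% interval -0.30 to 0.17, adjusted p = 0.633). It was 0.07 without shTrem2 replicate 2 and -0.26 (adjusted p = 0.00409) without shTrem2 replicate 3, so single shTrem2 libraries set both its sign and its call.

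Apoc2 (ENSMUSG00000002992), the cofactor that activates Lpl, had 30, 20 and 24 counts in shNC and 19, 8 and 11 counts in shTrem2. In CPM this was 1.86, 1.11 and 1.32 against 0.990, 0.418 and 0.566. The groups did not overlap, but the highest shTrem2 library and the lowest shNC library were 1 count apart. Apoc2 passed the filter on low counts only through its shNC libraries, so the filter itself favoured its fall. The log2 fold change was -1.10 (standard error 0.386, 95% interval -1.94 to -0.27, adjusted p = 0.0250). The call was lost with DESeq2 (adjusted p = 0.0692) and without shNC replicate 1 (0.120), shTrem2 replicate 2 (0.101) or shTrem2 replicate 3 (0.0729). Of its cluster, looked up outside the rule for named genes, Apoc1 was at 0 in all libraries and Apoc4 had at most 2 counts. Apoe, the lipoprotein ligand that Trem2 binds, had 140, 151 and 145 counts in shNC and 122, 88 and 116 in shTrem2, a log2 fold change of -0.56 (adjusted p = 0.00568).

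Cd9 (ENSMUSG00000030342), a tetraspanin of the cell surface and of exosomes, was at 274, 270 and 281 CPM in shNC and at 346, 340 and 370 CPM in shTrem2. Replicates lay close together and the groups did not overlap. The log2 fold change was 0.36 (standard error 0.046, 95% interval 0.26 to 0.46, adjusted p = 1.86e-05), and it stayed past the threshold in each of 14 alternative settings, between 0.31 and 0.38.

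Cd63, the tetraspanin of late endosomes and lysosomes, was at 208, 223 and 230 CPM in shNC and at 207, 220 and 201 CPM in shTrem2. The groups overlapped, the log2 difference was -0.07 (95% interval -0.18 to 0.04, adjusted p = 0.233), and none of the 14 alternatives moved it past the threshold. The pseudogenes Cd63-ps and Cd9-ps were listed at 0 counts in all libraries.

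Gpnmb, a lysosomal and surface glycoprotein induced in lipid-loaded macrophages, was at 753, 825 and 908 CPM in shNC and at 839, 1013 and 797 CPM in shTrem2. The libraries interleaved, with a log2 difference of 0.09 (95% interval -0.09 to 0.27, adjusted p = 0.368). Under this sum lay a minor coding transcript, Gpnmb-203, that was higher in all 3 shTrem2 libraries, at 43.4, 42.7 and 45.4 CPM against 26.4, 22.0 and 33.6 CPM in shNC. Its log2 ratio was 0.68, with p = 0.1 by an exact two-sided permutation test.

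Lgals3 (ENSMUSG00000050335), a galectin that binds glycoproteins on damaged lysosomes and outside the cell, was at 420, 418 and 480 CPM in shNC and at 525, 568 and 496 CPM in shTrem2. The groups did not overlap, but shNC replicate 3 and shTrem2 replicate 3 came close. The log2 fold change was 0.27 (standard error 0.062, 95% interval 0.14 to 0.40, adjusted p = 0.00209). On the authors' FPKM values, tested with limma, the difference was 0.22 and missed the threshold (adjusted p = 0.0579 with a pseudocount of 1), and there the groups overlapped. Most Lgals3 counts lay in a pair of transcript rows of nearly equal size that could not be matched to named transcripts. One was higher in all 3 shTrem2 libraries, at 213, 203 and 233 CPM in shNC and at 285, 298 and 267 CPM in shTrem2. The other overlapped, at 206, 214 and 246 CPM in shNC and at 240, 269 and 229 CPM in shTrem2.

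Spp1, the secreted matrix protein osteopontin, was at 4740, 4548 and 4180 CPM in shNC and at 3920, 3227 and 5211 CPM in shTrem2. Its lowest and its highest library were both shTrem2, and the log2 difference was -0.12 (standard error 0.122, 95% interval -0.39 to 0.14, adjusted p = 0.406). Leaving out shTrem2 replicate 3 gave -0.34 (adjusted p = 7.79e-04), and leaving out shTrem2 replicate 2 gave 0.03 (adjusted p = 0.831), so the call and the sign of the sum turn on single libraries. A minor Spp1 transcript row was at 435, 448 and 423 CPM in shNC and at 300, 261 and 419 CPM in shTrem2. There the groups came close but did not overlap (log2 ratio -0.41, p = 0.1 by an exact two-sided permutation test). Spp1 alone made up 56.8% to 62.5% of all marker counts in shNC and 48.1% to 58.9% in shTrem2. The 10 markers together held 0.741% to 0.770% of each shNC library and 0.664% to 0.875% of each shTrem2 library, and the shTrem2 values again lay on both sides.

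**Figure D3:**
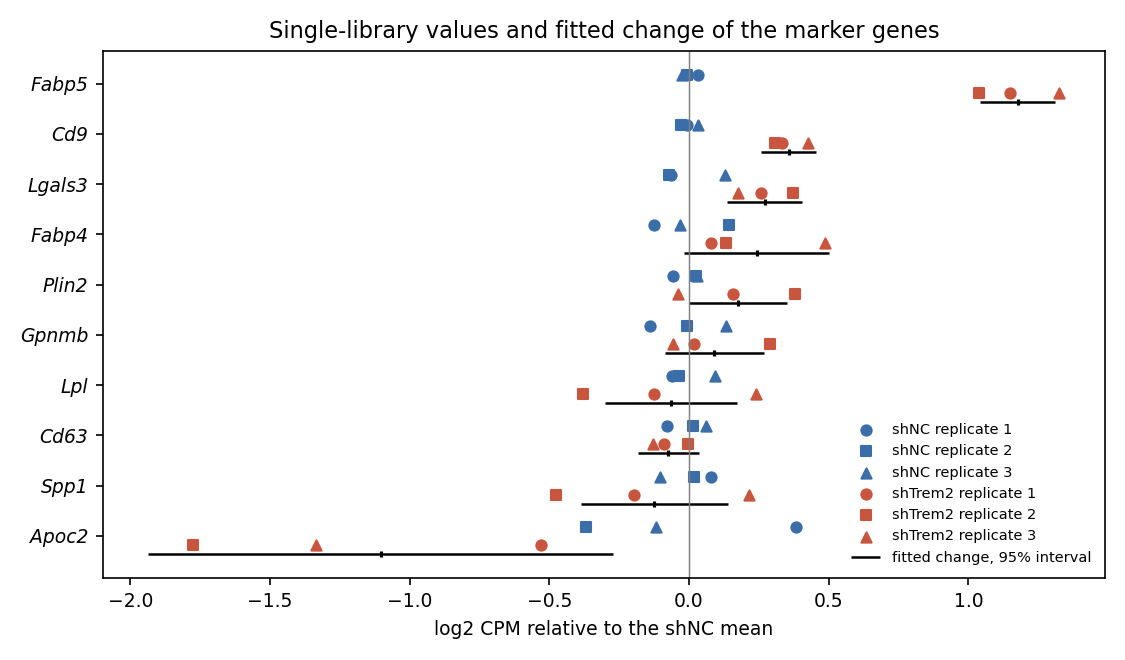
Log2 CPM of each marker in each library relative to its shNC mean (blue shNC, red shTrem2, symbols by replicate), with a black line for the fitted log2 fold change and its 95% interval. Fabp5 (1.18), Cd9 (0.36) and Lgals3 (0.27) lie to the right of 0 and Apoc2 (-1.10) to the left, while for Spp1 and Lpl shTrem2 replicates 2 and 3 lie on opposite sides of 0.

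The markers varied more among shTrem2 than among shNC libraries. The coefficient of variation was larger in shTrem2 for 8 of 10 markers, with a median of 13.8% against 6.10% in shNC. Over all tested genes it was larger in shTrem2 for 53.6%, with medians of 6.88% and 6.39%. Spp1, Lpl, Fabp5 and Cd9 were lowest in shTrem2 replicate 2, between in replicate 1 and highest in replicate 3, an order that 21.7% of tested genes shared. Gpnmb, Plin2, Lgals3 and Cd63 had the reverse order, as did 22.0% of tested genes. Fabp4 and Apoc2 had neither. These shTrem2 libraries, replicates 2 and 3, were also the replicate pair farthest apart over all genes, with a chi-square per degree of freedom of 10 against 2.54 to 5.70 for the other pairs. These are orders within 3 libraries and carry no test.

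Promoter sequence was looked up for the markers in the RefSeq table of build GRCm38.p6, which listed 8 promoters of 7 markers. Fabp4, Fabp5 and Lpl had no entry. The 250 bases before the start of Cd9 (chr6:125494761-125495010, minus strand) and Lgals3 (chr14:47373610-47373859, plus strand) are shown, as the rising markers with an entry. Capitals mark, on either strand, the GC box GGGCGG and the STAT-type motif, in which TTC and GAA stand 4 bases apart.
Cd9: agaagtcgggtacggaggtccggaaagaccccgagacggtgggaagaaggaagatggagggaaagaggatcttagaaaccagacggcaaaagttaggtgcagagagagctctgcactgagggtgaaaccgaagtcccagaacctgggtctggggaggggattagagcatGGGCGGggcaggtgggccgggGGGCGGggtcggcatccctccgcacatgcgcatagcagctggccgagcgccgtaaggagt
Lgals3: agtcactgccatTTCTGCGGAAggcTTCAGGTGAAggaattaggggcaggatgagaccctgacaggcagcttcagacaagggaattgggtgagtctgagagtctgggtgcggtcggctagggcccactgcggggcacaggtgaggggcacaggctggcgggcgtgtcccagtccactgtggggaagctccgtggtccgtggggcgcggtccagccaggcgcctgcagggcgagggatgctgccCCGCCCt
Cd9 held 2 GC boxes and Lgals3 held 2 STAT-type motifs and 1 GC box in these bases. Over all 32851 promoters of 300 bases (250 before and the rest after the start), the GC box occurred in 35.7% and the STAT-type motif in 6.95%. Among the 8 marker promoters, the GC box occurred in 3 (Cd9, Lgals3, Plin2) and the STAT-type motif in 1. The AP-1 motif TGANTCA (7.81% of all promoters) occurred in that of Gpnmb, the E-box CACGTG (7.15%) in that of Plin2, TATAAA (13.6%) in 1 of the pair of Spp1 promoters, and the PU.1 core GAGGAA (28.3%) in those of Cd63 and Spp1. Apoc2 held none of these 6 motifs. Each is a match of letters, and binding was not measured.

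Lists of related genes show what surrounded the markers. Their counts stand beside 28.8% of all 13528 tested genes that rose and 28.6% that fell at an adjusted p under 0.05, and 21.8% that were DEGs. Of 25 other genes of lipid-associated and disease-associated macrophages, 22 were tested, and 8 rose, 11 fell and 3 did not pass. Their median log2 fold change was -0.07, against 0.13 for the markers and -2.84e-05 for all tested genes. Of the 9 DEGs of this list 4 were higher and 5 lower, where 9.46% and 12.4% of tested genes were higher and lower DEGs. Only the 6 of largest change are named. Itgax, the integrin CD11c, rose from 4.90 ± 1.39 to 29.6 ± 3.55 CPM (SD, n = 3), and the lectin receptor Clec7a rose from 5.61 ± 0.457 to 25.9 ± 1.97 CPM. The scavenger receptor Cd36 (log2 fold change 1.72) and the lysosomal proton pump subunit Atp6v0d2 (1.61) also rose. Cd84, an adhesion receptor of the SLAM family, fell from 178 ± 7.25 to 43.9 ± 1.78 CPM, and Csf1, the macrophage growth factor, fell by 1.68 on the log2 scale.

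Around Plin2, 15 of 24 genes of lipid droplets and neutral lipid turnover were tested, and 3 rose, 8 fell and 4 did not pass, with a median of -0.27. All 3 DEGs of the list fell. They were Fitm2, which helps droplets bud (-0.76), the perilipin Plin3 (-0.74) and the triglyceride lipase Pnpla2 (-0.73). Plin3 averaged 51.4 ± 2.21 CPM (SD, n = 3) in shNC and 30.7 ± 2.21 CPM in shTrem2. Whether its change differed from that of Plin2 was not tested.

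Around Lpl and the fatty acid carriers, 17 of 25 genes of fatty acid uptake, activation and Lpl partners were tested, and 8 rose, 4 fell and 5 did not pass (median 0.11). Cd36, the fatty acid translocase, was its only DEG, with 9, 11 and 15 counts in shNC and 49, 34 and 45 counts in shTrem2. Of 12 other genes of the fatty acid binding protein family only 2 passed the filter on low counts.

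Around Cd9 and Cd63, 12 of 17 other tetraspanins were tested, and 5 rose, 5 fell and 2 did not pass, with no DEG and a median of -0.10. Around Lgals3, 7 of 10 other galectins and galectin ligands were tested. Of these Lgals3bp, a glycoprotein that binds Lgals3, rose by 0.67 on the log2 scale, with 261 ± 8.58 CPM (SD, n = 3) in shNC and 414 ± 7.91 CPM in shTrem2 (adjusted p = 3.37e-08). Lgals4, low in these cells, fell by 1.31 on the log2 scale, and the other 5 did not pass.

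Among 15 receptors and partners of the secreted and surface markers, 11 were tested, and 2 rose, 5 fell and 4 did not pass. Itgb3, an integrin subunit of the osteopontin receptor, rose from 20, 18 and 23 to 62, 85 and 47 counts (log2 fold change 1.52). Hbegf, a growth factor precursor that associates with Cd9, fell from 39, 91 and 67 to 15, 8 and 10 counts (-2.69). It passed the filter on low counts only through its shNC libraries, so the filter itself favoured its fall.

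Of 21 transcription factors of lipid and lysosome genes, 18 were tested, and 10 rose, 3 fell and 5 did not pass (median 0.21). All 5 DEGs rose, where 9.46% of all tested genes were higher DEGs. Among them were the oxysterol receptor Nr1h3 (log2 fold change 1.55), its partner Rxra (1.39), Bhlhe41 (0.74) and Tfec (2.45, from 2, 6 and 3 to 27, 29 and 12 counts). Tfec passed the filter on low counts only through its shTrem2 libraries, so the filter itself favoured its rise. Each of the 5 had an adjusted p of 0.00113 or less.

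**Figure D4:**
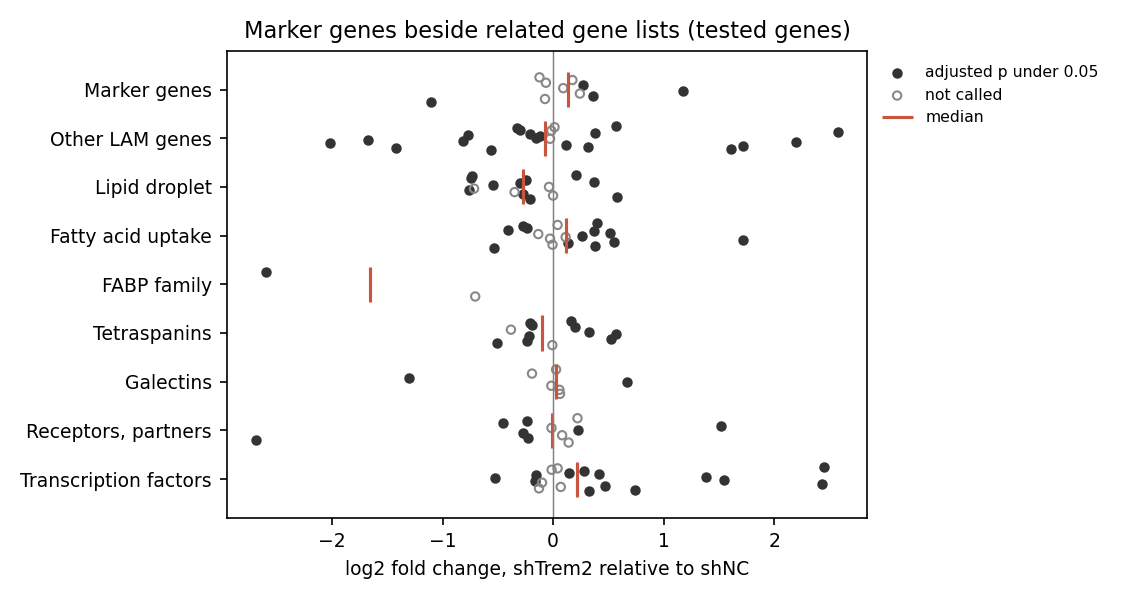
Log2 fold change (shTrem2 relative to shNC) of each tested marker and of each tested gene of the 8 related lists, filled where the adjusted p was under 0.05 and open where not, with a red line at the list's median. The markers lie between -1.10 (Apoc2) and 1.18 (Fabp5) around a median of 0.13, and the droplet list has a median of -0.27.

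Markers of cell types that these cultures or the debris could hold were read beside the 10 genes. Over all tested genes 28.8% rose and 28.6% fell at an adjusted p under 0.05. Of 14 tubular epithelial markers 9 were at 0 in all libraries, among them Epcam, Cdh1, Krt8 and Krt18, and their summed level was 0.665 to 1.18 CPM in shNC and 2.11 to 2.77 CPM in shTrem2. Of this Aqp1 made up 0.745, 0.332 and 0.275 CPM in the shNC libraries and 1.98, 2.61 and 2.01 CPM in the shTrem2 libraries. Of 6 adipocyte markers none passed the filter, Lep, Cidec and Cfd were at 0, and their summed level was 0.166 to 0.330 CPM in shNC and 0.0522 to 0.156 CPM in shTrem2. Of 5 fibroblast markers none passed the filter and 4 were at 0 (highest, Col1a1, 8 counts), and of 5 dendritic cell markers only Zbtb46 was tested, and it fell by 0.84 on the log2 scale. Of 11 macrophage markers 10 were tested, 8 rose and 2 fell. Their summed level was 5579 to 6575 CPM in shNC and 10680 to 12070 CPM in shTrem2, led by Lyz2, which averaged 2802 ± 355 CPM (SD, n = 3) in shNC and 7357 ± 544 CPM in shTrem2. Those that fell were Itgam (log2 fold change -0.78) and Adgre1 (-0.56), named after their values were seen. Of 9 osteoclast markers, some of which macrophages also express, 7 were tested and 6 rose, none fell and Calcr was at 0. Their summed level was 127 to 138 CPM in shNC and 284 to 325 CPM in shTrem2, and Nfatc1 was the highest. Ctsk went from 0.462 ± 0.119 to 31.3 ± 7.03 CPM (SD, n = 3) and Ocstamp from 0.399 ± 0.358 to 2.80 ± 1.18 CPM, both named after their values were seen. Both had few counts in shNC and passed the filter on low counts only through their shTrem2 libraries. The filter itself thus favoured a rise for them. Most tested genes of the osteoclast and macrophage lists were thus higher in shTrem2, as Fabp5, Cd9 and Lgals3 were. The part of these lists in the results for the 10 genes was not tested.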

How the data were processed

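Poly(A) RNA of 3 shNC and 3 shTrem2 samples was sequenced as stranded paired reads, and samples were grouped by the shRNA in their labels. The submitters' processing notes name fastp, HISAT2, StringTie and build GRCm39. The counting tool and annotation release are not given in the sources used here. The authors deposited estimated counts per transcript, not scaled for depth or length, of which 79.3% of nonzero values were not whole. They also deposited FPKM per gene, scaled for depth and length, with annotation columns and group means that were not used.

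For each symbol, counts of its transcript rows were added and rounded. Rows without a symbol (0.908% to 1.12% of counts per library) were left out. Sums join transcripts, and 311 symbols join several gene identifiers. CPM values use TMM-scaled library sizes. edgeR 4.0.16 (TMM, filterByExpr, glmQLFTest, R 4.3.3) tested 13528 genes without covariates, with Benjamini-Hochberg adjustment over all of them. A DEG had an adjusted p under 0.05 and a fold change over 1.5. Single ratios and transcripts were compared with exact permutation tests (scipy 1.17.1). On data simulated for this comparison, with 200 of 13353 genes changed, 99.5% were recovered, and 6 unchanged genes were called. The changed genes all had more counts than Apoc2 and folds of at least 1.5, with the same dispersion for every gene. Low counts and smaller changes, such as those of Cd9 and Lgals3, were thus not covered.

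Alternatives were DESeq2 1.42.0, RLE factors, library size alone, filters of 1 count in total or 10 counts in every library, limma 3.58.1 on log2(FPKM + 1) and log2(FPKM + 0.1), a replicate block, and each library left out. The markers and lists were chosen with earlier results of these data known. Named were all markers, Trem2, up to 6 DEGs of largest change per related list, and the highest marker of each other cell type, except 2 genes of the related lists that are not reported here. Transcript rows were assigned with GENCODE M21 (GRCm38), and the Lgals3 rows could not be settled.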

Additional observations from a re-analysis of the deposited data

How the results depend on the processing

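Under 14 alternatives (13 for Apoc2), Fabp5, Cd9, Cd63 and Fabp4 kept their direction and their side of the threshold. The number of markers that were DEGs, 2 with edgeR and TMM, was 1 with DESeq2 and 1 with at least 10 counts in every library, where Apoc2 was not tested by construction. It was 1 to 2 with each library left out, and 1 without shNC replicate 1, shTrem2 replicate 2 or shTrem2 replicate 3, since Apoc2 was lost. The number of markers with an adjusted p under 0.05 ranged from 3 to 6. Signs reversed only for Spp1, Lpl and Gpnmb, each without shTrem2 replicate 2. With each library left out in turn, Spp1 ranged from -0.34 to 0.027, Lpl from -0.26 to 0.071 and Gpnmb from -0.017 to 0.16. With a minimum of 1 count in total, Spp1 (adjusted p = 0.00901) and Plin2 (0.0107) passed edgeR's quasi-likelihood test, with fold changes nearly as before. The 33 DEGs named or counted outside the markers kept direction and side in all 455 refits that gave a value. DEGs over all genes were 2951 and ranged from 2124 to 3334. Of the DEGs 43.4% were higher, and 39.0% when only library size was used for scaling. With the replicate number as a block there were 2911 DEGs, 4 called markers and 2 marker DEGs, and no marker changed its call. Samples with the same number did not deviate together (correlations -0.00249, -0.00123 and -0.00537). This cannot show whether they were cultured or processed together, which the labels do not say. Counts of 8 to 30 limit Apoc2, and 3 libraries per group cannot reach p under 0.1 in a permutation test. The causes of these shifts were not tested.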
